A study of Arabidopsis thaliana with 8 samples.

Results

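AT3G43270, a pectin methylesterase gene, and AT5G62360, a gene of the pectin methylesterase inhibitor family, were followed across 8 arrays of Arabidopsis thaliana seedlings. They are 2 of the 13286 genes that the platform annotation ties to a probe set shared with no other gene, and each is read by 1 such probe set. Both were chosen by their signals on these arrays, the first for a rise linked to the transgenic line and the second for a rise in every treated group. Their levels and changes are therefore given as a description, with no test.

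Pectin is the galacturonic acid polymer of the plant cell wall, laid down in a methylesterified form. Pectin methylesterases (PMEs) remove the methyl groups in the wall, which changes how the polymer binds calcium and how readily other enzymes cut it. Inhibitor proteins bind PMEs and block them, and the same protein superfamily holds inhibitors of invertases, the enzymes that split sucrose. Many PMEs are themselves made with a leading stretch that resembles the inhibitors.

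All seedlings were of the Ws-0 accession and 8 days old, and every group had 2 biological replicates with 1 Affymetrix ATH1 array each. Transgenic seedlings carried 35S:LEC2-GR, in which a constitutive promoter drives LEAFY COTYLEDON2 (LEC2), a transcription factor of embryo development, joined to the steroid-binding region of a glucocorticoid receptor (GR). Such a fusion stays inactive until dexamethasone is given. Dexamethasone, a synthetic glucocorticoid, was given to the line for 1 h or for 4 h and to non-transgenic wild type for 4 h, and a further group of the line was left untreated and is called uninduced here. No untreated wild type and no wild type at 1 h belonged to the design, so a difference between treated wild type and the untreated line mixes dexamethasone, handling time and genotype, which cannot be told apart.

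The values are MAS5 signals on a linear scale, with the same trimmed mean of 500.05 on all 8 arrays and medians from 170.1 to 191.1. Replicates of a group correlated at 0.969 to 0.98 over the tested probe sets. Changes are differences of log2(signal + 45), which understate the change of dim genes, with a standard error (SE) from a limma fit over 15026 probe sets. LEC2 had 0 probe sets under its own name, so the transgene could not be used to check the labels. The seedling label was checked with 5 chlorophyll and Calvin cycle genes, whose summed signal was at least 79993 on each array, and with 5 root genes, of which PYK10 alone was bright, at 7632.5 or more, while the other 4 read at most 193.5. The instrument records put the wild type arrays first in scan order, then the uninduced, the 1 h and the 4 h arrays. The groups were scanned one after another, so no comparison between groups can be told apart from scan order. In these records the hybridisation time was filled in for the wild type and uninduced arrays and left blank for the 1 h and 4 h arrays. Whether this marks separate runs is not stated. A difference of the 1 h or 4 h arrays from the other groups cannot be told apart from such a split. The record of 4 h replicate 2 holds a comment about high background.

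The PME gene AT3G43270 had a signal of 453.7 and 581.9 in the uninduced line. After 1 h of dexamethasone the line stood at 1930.9 and 2241.4, and after 4 h at 6211.5 and 6191.0. Treated wild type stood at 289.4 and 288.6. No group overlapped another, and the order was wild type, uninduced line, line at 1 h and line at 4 h. The group means were 289.0 ± 0.566 (SD, n = 2) in wild type, 517.8 ± 90.7 in the uninduced line, 2086 ± 220 at 1 h and 6201 ± 14.5 at 4 h.

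**Figure D1:**
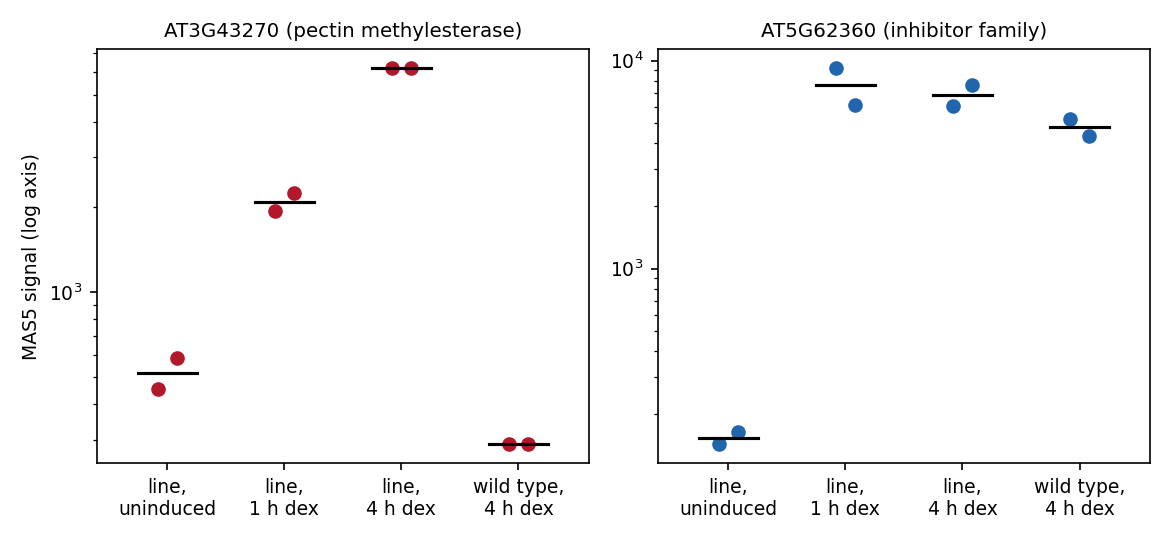
Signal of AT3G43270 (left) and AT5G62360 (right) on each of the 8 arrays, on logarithmic axes of MAS5 signal that differ between the panels; points are arrays and bars are means of 2. AT3G43270 rises from 517.8 through 2086 to 6201 in the line and is 289.0 in treated wild type, whereas AT5G62360 is at 153.2 in the uninduced line and between 4327.0 and 9213.4 on all 6 treated arrays.

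On the log2 scale AT3G43270 exceeded its uninduced level by 1.93 (SE 0.15) at 1 h and by 3.48 (SE 0.15) at 4 h. The 4 h line stood 4.23 (SE 0.15) above wild type, a 21.5-fold ratio of mean signals. Among the 15026 tested probe sets this difference from wild type was at rank 14 from the highest. Between 1 h and 4 h the signal went up by a further 1.56 (SE 0.15), and at 1 h 27.6% of the rise in signal seen at 4 h was present. Wild type minus the uninduced line was -0.74 (SE 0.15) on the log2 scale, so treated seedlings without the transgene lay below the untreated line for this gene.

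AT5G62360 of the inhibitor family had a signal of 142.7 and 163.7 in the uninduced line, above the 40th percentile of those arrays, which was 100.3 and 105.8. The line stood at 9213.4 and 6107.5 after 1 h and at 6021.1 and 7664.4 after 4 h. Treated wild type stood at 5264.4 and 4327.0. All 6 treated arrays lay far above both untreated ones. The ranges at 1 h and 4 h overlapped, whereas both wild type arrays were below all 4 treated arrays of the line. The means were 153.2 ± 14.8 (SD, n = 2) uninduced, 7660 ± 2196 at 1 h, 6843 ± 1162 at 4 h and 4796 ± 663 for wild type.

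Over the uninduced line AT5G62360 gained 5.25 on the log2 scale at 1 h, 5.11 at 4 h and 4.61 in treated wild type, each with an SE of 0.18. These changes were at ranks 3, 5 and 3 from the highest among 15026 probe sets. The ratio of mean signals was 44.7 at 4 h and 31.3 for wild type. Both wild type arrays were scanned before the uninduced ones, so the change of 4.61 cannot be told apart from scan order either. From 1 h to 4 h the value moved by -0.14 (SE 0.18), and leaving out 1 array at a time gave -0.44 to 0.15, so its sign is not settled. The 4 h line was 0.51 (SE 0.18) above wild type on the log2 scale, and wild type showed 69.4% of the rise in signal that the line had at 4 h. For AT3G43270 that share was -4.03%.

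Set side by side, the changes of both genes separated in opposite senses according to the comparison. The log2 change of AT3G43270 minus that of AT5G62360 was -5.35 for wild type against the uninduced line and 3.72 for the 4 h line against wild type. Relative to the uninduced line it was -3.33 at 1 h and -1.63 at 4 h. From 1 h to 4 h it was 1.70, with the signals of AT5G62360 overlapping between these times and those of AT3G43270 not. Leaving out the 4 h array with the background comment gave 3.48 for AT3G43270 and 4.94 for AT5G62360 against the uninduced line.

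**Figure D2:**
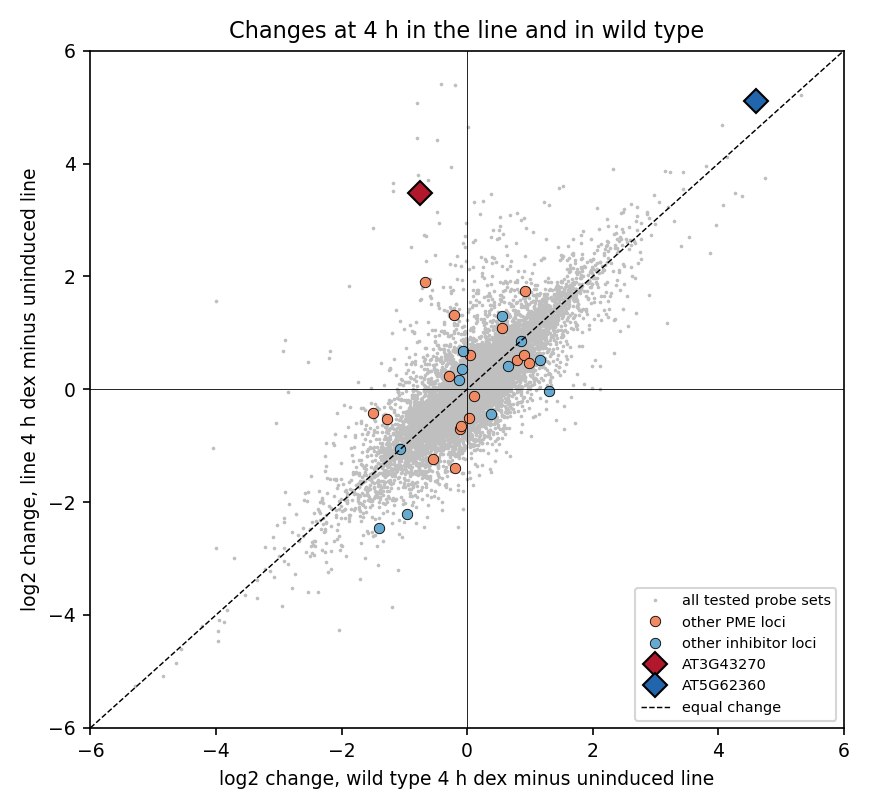
Log2 change over the uninduced line in treated wild type (horizontal axis) and in the line at 4 h (vertical axis) for 15026 tested probe sets; both axes share the uninduced arrays, and the dashed line marks equal change. AT5G62360 lies near that line at 4.61 and 5.11, and AT3G43270 lies well above it at -0.74 and 3.48.

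The shapes that describe both genes were found in few probe sets. A rise of at least 1 on the log2 scale over the uninduced line in all 3 treated groups, the shape of AT5G62360, was found in 273 of 15026 probe sets, or 1.82%. A rise of at least 1 at 4 h over both the uninduced line and wild type, with wild type at or below the uninduced line, was found in 101, or 0.672%. AT3G43270 is one of these 101. The comparisons share arrays, so these shares describe the arrays and are not a test.

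Other genes of the superfamily were taken from a list of loci written from general knowledge of the family, with earlier results of these data known. The supplied annotation itself names 4 of those with a probe set as pectin methylesterases. Beside AT3G43270, 44 PME loci could be read by a probe set for that locus alone, and 17 of them were bright enough to be tested and 27 were not, with no signal above 107.3 in the latter. Beside AT5G62360 there were 19 inhibitor loci, of which 12 were tested and 7 were not, with no signal above 140.9. High values in 1 group can carry a gene through the filter on low signals, and this applied to 1 tested inhibitor locus, AT5G38610, and to 0 PME loci.

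Of the 17 tested PME loci, 4 were higher in the 4 h line than in wild type and 0 were lower, where 6.63% of all tested probe sets were called, 3.42% higher and 3.21% lower (limma, Benjamini-Hochberg adjusted p under 0.05). At an unadjusted p under 0.05 the counts were 5 and 5. Their median difference was -0.24, against -0.02 over all tested probe sets. The 4 were PME61, AT3G10720, ATPMEPCRD and ATPMEPCRB.

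PME61 (AT3G59010) had a pattern like that of AT3G43270. Its signal was 125.6 and 88.4 in the uninduced line, 371.4 and 386.3 at 1 h, 394.4 and 670.2 at 4 h, and 37.3 and 63.3 in wild type. All arrays of the line after treatment lay above the uninduced ones, and both wild type arrays lay below them. The wild type signals were under the 40th percentile of their arrays, 113.8 and 109.2. Wild type minus the uninduced line, -0.68 on the log2 scale, was not called (limma adjusted p = 0.0705). PME61 rose by 2.57 (SE 0.27, limma adjusted p = 1.54e-05) over wild type and by 1.89 (adjusted p = 5.45e-05) over the uninduced line at 4 h. It had already risen by 1.49 (adjusted p = 0.000983) at 1 h. Over the 8 arrays its log2 values correlated with those of AT3G43270 at r = 0.95.

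AT3G10720, also listed as a PME, had signals of 1691.8 and 1614.5 in the uninduced line, 5430.6 and 4760.8 at 1 h, 4282.3 and 4092.4 at 4 h, and 1605.2 and 1257.5 in wild type. The treated line was above both other groups on every array. AT3G10720 rose by 1.53 over wild type (SE 0.14, limma adjusted p = 4.65e-06) and by 1.32 over the uninduced line at 4 h (adjusted p = 3.54e-06), and by 1.60 at 1 h (adjusted p = 1.28e-06). Unlike AT3G43270 it stood at its highest mean at 1 h, 5096 against 4187 at 4 h, and this log2 difference of -0.28 was not called.

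ATPMEPCRD (AT2G43050) and ATPMEPCRB (AT4G02330) also exceeded wild type at 4 h, but in other ways. ATPMEPCRD had a mean signal of 602.5 uninduced, 201.1 at 1 h, 441.4 at 4 h and 186.4 for wild type. It fell by 1.40 in the line at 1 h (limma adjusted p = 0.00034) and by 1.5 in wild type (adjusted p = 0.000115) relative to the uninduced line. From 1 h to 4 h it rose by 0.98 (adjusted p = 0.00601), which was lost without 1 h replicate 1 (0.0606) or 4 h replicate 2 (0.0875). Its difference of 1.07 from wild type was lost without 4 h replicate 2 (adjusted p = 0.114) or wild type replicate 1 (0.124). ATPMEPCRB rose in every treated group over 233.4 in the uninduced line, to 603.5 at 1 h, 859.9 at 4 h and 471.6 for wild type, the last of which was lost without uninduced replicate 2 (adjusted p = 0.095) or wild type replicate 1 (0.0673). Its difference of 0.81 from wild type (adjusted p = 0.0496) was lost under 9 of 16 alternative settings, with an adjusted p of up to 0.307.

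At 1 h, 6 of the 17 PME loci were above the uninduced line and 1 was below it, where 16.7% of all tested probe sets were called, 9.5% higher and 7.16% lower. At 4 h the counts were 5 and 1, where 35.6% were called, 18.8% higher and 16.8% lower. In wild type they were 3 and 2, where 31.1% were called, 16.8% higher and 14.3% lower. From 1 h to 4 h they were 1 and 2, where 19.7% were called, 10.3% higher and 9.34% lower. AT3G49220 rose in all treated groups over 2624 in the uninduced line, by 0.93 at 1 h, 0.52 at 4 h (limma adjusted p = 0.00446) and 0.80 in wild type. AT5G64640 rose by 0.80 at 1 h and by 0.99 in wild type, and its change of 0.46 at 4 h was not called. Its 1 h rise did not pass once uninduced replicate 1 (adjusted p = 0.114) or 1 h replicate 1 (0.122) was left out. AT2G47550 rose by 1.15 at 1 h, a call lost without 1 h replicate 1 (adjusted p = 0.0805), and by 1.09 at 4 h. PMEPCRF (AT5G53370) fell by 1.24 at 4 h (adjusted p = 0.000263), from 608.1 to 230.7. Its change of -0.55 in wild type (limma adjusted p = 0.061) and its difference of -0.70 between the 4 h line and wild type (0.0629) were not called. AT5G04960 fell by 1.27 in wild type (adjusted p = 0.0299), a call lost without uninduced replicate 1 (0.22), without wild type replicate 2 (0.344) or with no filter (0.0684).

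**Figure D3:**
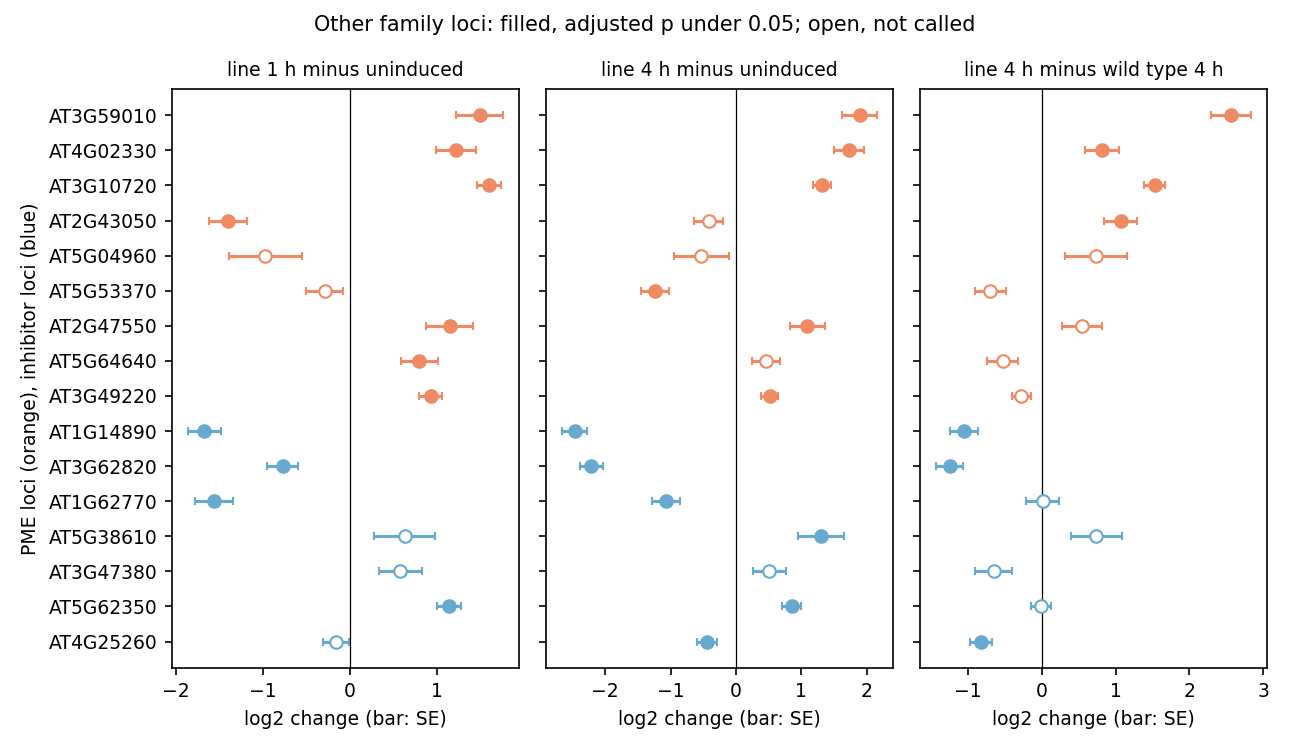
Log2 change with its SE for the 9 PME loci (orange) and 7 inhibitor loci (blue) called in at least 1 of the 5 comparisons, in 3 of them; filled points passed an adjusted p under 0.05 in limma. Against wild type 4 of 17 tested PME loci are called higher and 3 of 12 tested inhibitor loci lower, with PME61 (AT3G59010) at 2.57 and AT3G62820 at -1.25. Over all tested probe sets 3.42% were called higher and 3.21% lower. The calls of AT2G43050 and AT4G02330 against wild type did not hold in all alternative settings.

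Of the 12 tested inhibitor loci other than AT5G62360, 0 were higher in the 4 h line than in wild type and 3 were lower (limma), where 3.42% of all tested probe sets were called higher and 3.21% lower. The counts at an unadjusted p under 0.05 were 1 and 5. The 3 were AT3G62820, AT1G14890 and AT4G25260, with log2 differences of -1.25 (adjusted p = 0.000439), -1.06 (adjusted p = 0.00209) and -0.82 (adjusted p = 0.00232).

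AT1G14890 had signals of 1544.5 and 1579.4 in the uninduced line, 448.7 and 471.7 at 1 h, 307.7 and 194.5 at 4 h, and 583.8 and 535.9 in wild type. Every treated array lay below both untreated ones. AT1G14890 fell by 2.47 (SE 0.19, limma adjusted p = 1.11e-07) in the line at 4 h, and its change in wild type was -1.41. AT3G62820 had signals of 1067.8 and 874.2 uninduced, 618.5 and 484.0 at 1 h, 160.9 and 187.6 at 4 h, and 485.1 and 467.9 in wild type. The 4 h arrays were the lowest of the 8. AT3G62820 fell by 2.21 (SE 0.18, limma adjusted p = 2.57e-07) at 4 h, and its change in wild type was -0.96. Its change from 1 h to 4 h was -1.44 (adjusted p = 6.5e-05), and that up to 1 h, -0.77, did not pass without uninduced replicate 1 (0.0931) or 1 h replicate 2 (0.0784).

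Relative to the uninduced line, 2 of the 12 inhibitor loci were called above it at 4 h, which is near the share of 18.8% over all tested probe sets, and 4 below it, where 16.8% were. The 2 include AT5G38610, which entered the test through its 4 h arrays. The 4 include AT4G25260 (-0.44, limma adjusted p = 0.03), whose call was lost in 5 of 16 alternative settings. At 1 h, 1 was higher and 3 were lower, where 9.5% and 7.16% of all tested probe sets were. In wild type 2 were higher and 3 were lower, where 16.8% and 14.3% were. From 1 h to 4 h 0 were higher and 2 were lower (limma; 2 and 2 at an unadjusted p under 0.05), where 10.3% and 9.34% were. AT1G62770 fell from 467.6 in the uninduced line, with log2 changes of -1.56 at 1 h, -1.07 at 4 h and, for treated wild type, -1.08. AT5G38610 had a mean signal of 32.5 in the uninduced line and 146.1 at 4 h. Since it passed the filter on low signals only through the 4 h arrays, where it was high, its call there supports nothing, and it also ended without 4 h replicate 2 (adjusted p = 0.0852). AT3G47380 rose in wild type by 1.16 (adjusted p = 0.00252).

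AT5G62350 is the protein-coding gene next to AT5G62360 in RefSeq (TAIR10.1) and belongs to the same inhibitor list. Its signals were 4728.4 and 4782.0 in the uninduced line, 12280.9 and 9054.6 at 1 h, 8619.6 and 8603.3 at 4 h, and 8348.8 and 8956.2 in wild type. All treated arrays lay above both untreated ones, as they did for AT5G62360. AT5G62350 rose by 1.14 (SE 0.14, limma adjusted p = 2.35e-05) at 1 h, 0.85 at 4 h (adjusted p = 0.000185) and 0.86 in wild type (adjusted p = 0.00022). Its difference of -0.01 between the 4 h line and wild type was not called. Over the 8 arrays its log2 values correlated with those of AT5G62360 at r = 0.95.

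Among other genes of pectin and of the inhibitors' possible partners, few had a probe set of their own. GAUT15, of the galacturonosyltransferases that build pectin, rose from 133.8 in the uninduced line to 417.4 at 1 h (log2 1.37, limma adjusted p = 0.000176) and 329.6 at 4 h (1.07, adjusted p = 0.00075). Its difference of 0.79 from wild type (adjusted p = 0.0278) did not pass when any of the 4 arrays compared was left out (0.0969 to 0.22) or with no filter (0.0819). Of 2 loci listed as invertases, AT1G62660 fell by 0.99 relative to wild type at 4 h (limma adjusted p = 0.00384). That call was lost without 4 h replicate 1 or wild type replicate 2. The other listed locus, cwINV6, was not called in any of the 5 comparisons (limma). Of 4 tested subtilases, from the protease family that processes PMEs, ARA12 rose by 0.56 at 1 h and by 0.42 at 4 h over the uninduced line. Leaving out uninduced replicate 2 ended both calls (adjusted p of 0.117 and 0.239). The 1 h call also ended without 1 h replicate 1 (0.0571), and the 4 h call without 4 h replicate 1 (0.0737) or replicate 2 (0.142). With no trend in the fit neither passed (0.0594 and 0.0924). ATSBT5.2 fell by 1.24 at 4 h (limma adjusted p = 0.00165) and by 0.90 in wild type (adjusted p = 0.0159) relative to the uninduced line. The wild type call was lost in 4 of 16 alternative settings, and the line minus wild type at 4 h was -0.34. Against wild type 0 of the 4 subtilases were called (limma; 1 higher and 0 lower at an unadjusted p under 0.05), where 6.63% of all tested probe sets were.

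The genes most like each member were taken as those with the highest Pearson r over the 8 arrays among 299 genes whose group means spanned at least 2 on the log2 scale. These r values rest on 4 groups of 2 arrays and are a description. Steps that the chosen genes share with the member follow from this selection. For AT3G43270 the 8 genes had r from 0.959 to 0.973. They were AT5G60760, ULT1, AT5G08460, the auxin synthesis gene YUC4, AT3G54940, the oleosin OLEO3, AT2G42990 and AT1G55265. All 8 were higher at 4 h than at 1 h, by 0.38 to 3.41, and 7 of them, all but AT1G55265, were lower in wild type than in the uninduced line. In both of these groups AT5G60760, YUC4, AT3G54940 and AT2G42990 had means of 73.3 or less, under the 40th percentile of the arrays. The YUC4 replicates overlapped between the groups.

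OLEO3, which coats seed oil bodies, went from a mean of 195.6 uninduced to 448.1 at 1 h and 2635 at 4 h, with 60.4 in wild type, a larger late step than AT3G43270. ULT1, a chromatin-associated regulator of meristems, went from 664.6 to 2032 and 2688, with 423.6 in wild type, a smaller late step. PME61 was outside the selection of 8, and AT3G10720 had r = 0.88 with AT3G43270.

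For AT5G62360 the 8 genes had r from 0.972 to 0.997. They were AT2G16890, AT5G35735, AT4G36010, AT5G55050, AT1G19020, the zinc finger gene STZ, the calmodulin-like gene CML42 and the pirin gene PRN. Each was between 1.60 and 3.44 higher in wild type than in the uninduced line, against 4.61 for AT5G62360, and none differed between the 4 h line and wild type by more than 0.41. AT2G16890 went from a mean of 6.55 uninduced to 411.2 at 1 h, 354.2 at 4 h and 306.8 for wild type. In the same order, AT5G35735 went from 333.2 to 4190, 4408 and 4042.

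**Figure D4:**
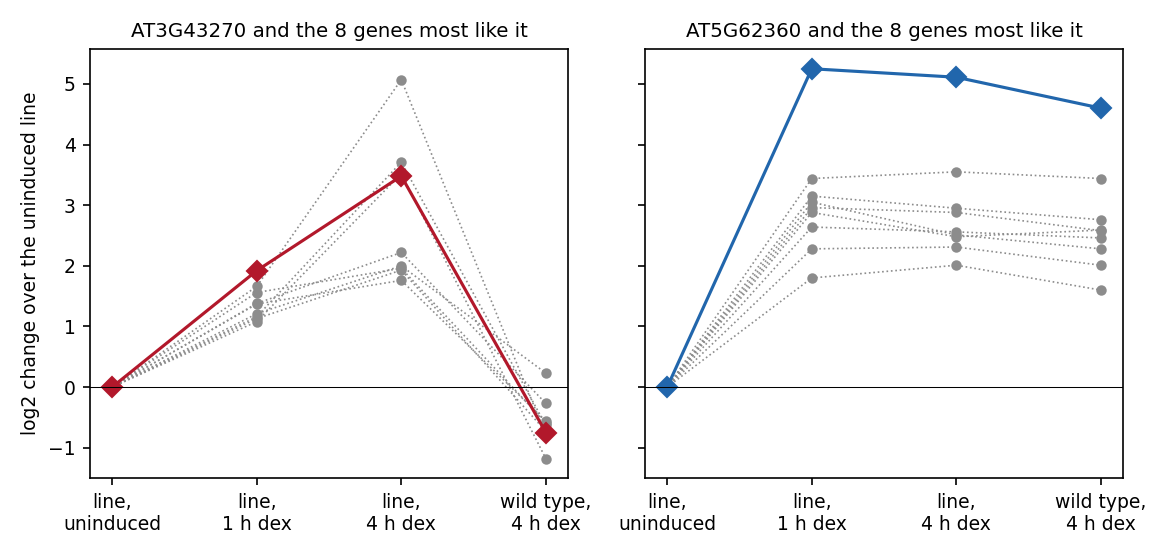
Log2 change over the uninduced line, by group mean of 2 arrays, for AT3G43270 (left) and AT5G62360 (right) in colour and for the 8 genes with the highest r to each in grey; the lines join groups only to guide the eye. The genes like AT3G43270 climb from 1 h to 4 h and stand between -1.18 and 0.23 in wild type, and those like AT5G62360 stand between 1.60 and 3.44 there.

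Some genes known to respond to touch and wounding were higher where AT5G62360 was. Of 4 with a probe set, 3 were tested, and all 3, STZ, GRX480 and CML38, rose at 1 h over the uninduced line (limma), while STZ alone was called at 4 h (log2 2.51) and in wild type (2.28). Over all tested probe sets 9.5% were called higher at 1 h, 18.8% at 4 h and 16.8% for wild type. The summed signal of the 4 was 318.7 and 365.6 in the uninduced line, 1898.6 and 2385.8 at 1 h, 1072.9 and 1177.4 at 4 h, and 1014.9 and 1265.8 in wild type. CML38 fell by 1.66 from 1 h to 4 h (limma adjusted p = 0.000856), a step in which AT5G62360 moved by -0.14. The part of handling in the change of AT5G62360 was not tested.

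All 5 shoot genes fell at 4 h and in wild type relative to the uninduced line, where 16.8% and 14.3% of all tested probe sets were called lower. Between the 4 h line and wild type 0 of them were called (limma; 0 at an unadjusted p under 0.05), where 6.63% of all tested probe sets were. Their summed signal was 145941 and 146662 in the uninduced line, 103579 to 120059 at 1 h, 79993 to 88142 at 4 h and 87889 to 91789 in wild type. The root genes summed to 10416 to 11136, 10682 to 10762, 8158 to 9310 and 12311 to 13113 in the same order, nearly all of it PYK10. PYK10 was lower in the 4 h line than in wild type by a log2 difference of -0.57 (limma adjusted p = 0.00717), which was lost without 4 h replicate 2 (0.111), without wild type replicate 1 (0.107) or with no trend (0.0896) and stood at the threshold of 0.05 without wild type replicate 2. Its difference of -0.33 from the uninduced line (adjusted p = 0.0424) was lost under several settings, with an adjusted p of up to 0.285. GH9C1, another root gene, read 0.80 and 0.78 in these comparisons and was not called. In whole seedlings, fewer cells of a type and less RNA per cell cannot be told apart. The share of either organ in the changes of AT3G43270 and AT5G62360 was not tested.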

How the data were processed

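Biotin-labelled target from polyA RNA of whole seedlings was hybridised to 8 ATH1 arrays. The authors deposited 1 intensity per probe set and array, made with MAS5 per the submitters' processing notes (version not given in the sources used here). No detection calls were used. The authors' instrument records were read for array position and scan order, other values that entered no fit. Of 22810 probe sets, 64 controls were left out. Of the other 22746, the platform annotation gives 13513 a single gene, 503 several and 8730 none here. Of the 13513, 13436 matched the RefSeq table of TAIR10.1, used for names and gene order only.

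Values were log2(intensity + 45), 45 being the 25th percentile of the table. Probe sets above their array's 40th percentile on at least 2 arrays were tested, 15026 in all. limma 3.58.1 (R 4.3.3) fitted a mean for each group to all 8 arrays (eBayes with trend, 4 residual and 11.2 prior degrees of freedom), and calls were at a Benjamini-Hochberg adjusted p under 0.05 within a comparison. The script was tested on simulated data. Of each list, loci called in at least 1 of 5 comparisons were named, up to 12. The members and lists were chosen with earlier results of these data known. No sequences were analysed here. Only 2 arrays per group limit the precision.

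Alternatives were pseudocounts of 1 and 100, no filter, a filter at the 60th percentile, quantile normalization, no trend, fits of the 2 groups alone, the replicate number as a block and leaving out each array.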

Additional observations from a re-analysis of the deposited data

Results flagged for a closer look

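Among AT3G43270, AT5G62360 and the named loci, 5 had both line and both wild type 4 h arrays on opposite sides of the uninduced ones. The same held for 3.22% of all tested probe sets and for 4 of the 29 listed PME and inhibitor probe sets. The 29 leave out AT3G43270 and AT5G62360, and the 4 include AT5G09760, a PME locus called in no comparison and not among the 5. The line lay above for AT3G43270, where the line minus wild type was 4.23 on the log2 scale, PME61 (AT3G59010) at 2.57 and AT3G10720 at 1.53. For the inhibitor locus AT4G25260 and the invertase AT1G62660 the line lay below and wild type above, with differences of -0.82 and -0.99. Wild type minus the uninduced line was not called (limma) for PME61 (-0.68), AT3G10720 (-0.21), AT4G25260 (0.38) or AT1G62660 (0.38). The 4 h changes of AT4G25260 (-0.44) and AT1G62660 (-0.61) from the uninduced line were called, but lost in 5 and 3 of 16 alternative settings. The difference of AT3G43270 was not tested because it chose the gene, and the line and wild type share the uninduced arrays as their only baseline.

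The change over the uninduced line differed between 4 h and 1 h, by the limma test of that difference, for ATPMEPCRD (AT2G43050, 0.98), PMEPCRF (AT5G53370, -0.95), AT3G49220 (-0.41), AT1G14890 (-0.80), AT3G62820 (-1.44) and AT1G62660 (-0.59). The calls of PMEPCRF and AT3G62820 held in all 16 alternative settings, and that of AT1G62660 was lost in 10 of them, AT3G49220 in 6, ATPMEPCRD in 2 and AT1G14890 in 1.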

How the results depend on the processing

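The 2 arrays per group limit all values. With a pseudocount of 1 the log2 change of AT5G62360 over the uninduced line was 5.46 (4 h), 5.61 (1 h) and 4.96 (wild type), and with 100 it was 4.77, 4.91 and 4.27. The difference of AT3G43270 between the 4 h line and wild type was 4.42 and 4.02 with these pseudocounts and 4.24 with quantile normalization. Leaving out single arrays gave 4.22 to 4.23 for it.

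PME loci called lower at 4 h against the uninduced line were 2 with quantile normalization, with the 2 groups alone and with the replicate block. PME loci lower at 4 h than at 1 h were 4 with no filter, 1 with no trend and 1 with the 2 groups alone, and those lower in wild type were 1 with no filter and 1 with the stricter filter. Inhibitor loci higher than uninduced were 1 at 4 h with the stricter filter, 2 at 1 h with no trend and 4 in wild type with the 2 groups alone, and 1 was higher at 4 h than at 1 h with no trend.

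Leaving out each array in turn gave 3962 to 5568 called probe sets for 4 h against uninduced, 1735 to 2428 for 1 h, 494 to 1118 for 4 h against wild type (lowest without wild type replicate 2), 1839 to 3021 for 4 h against 1 h (lowest without 4 h replicate 2) and 2946 to 4897 for wild type against uninduced (lowest without wild type replicate 1). In the same order, PME loci higher were 5 to 5, 4 to 6, 2 to 4, 0 to 2 and 2 to 4, and lower 1 to 2, 1 to 1, 0 to 1, 1 to 2 and 1 to 3. Inhibitor loci higher were 1 to 3, 1 to 1, 0 to 0, 0 to 1 and 2 to 3, and lower 3 to 4, 2 to 3, 3 to 3, 1 to 3 and 3 to 3.

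Replicate numbers did not pair the samples, with deviations correlating at -0.064 to 0.033. The replicate block gave 5295, 2491, 992, 2919 and 4608 calls in that order. The other changes of AT3G43270 and AT5G62360 kept their direction, except that of AT5G62360 from 1 h to 4 h. Of 55 calls of named loci, 36 held in all 16 alternatives.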
